A study of Mus musculus with 3 samples.

Results

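Respiratory complex I is built from subunits and helped by assembly factors whose genes mostly carry symbols beginning with Nduf. The genes described here are the protein-coding genes with such a symbol in the GENCODE M21 annotation of the mouse genome (mm10). There were 46 of them among 55536 annotated genes, taken by name and not by a limit on any measured value. Earlier results of these data were known when the family was chosen. They comprise 36 nuclear-encoded subunits, 8 assembly factors and 2 further genes, Ndufa4 and Ndufa4l2. By textbook role the subunits are 7 core subunits, 9 supernumerary subunits of the peripheral arm, 19 of the membrane arm, and Ndufab1, which sits in both arms. The members lie on 17 chromosomes, 2 of them on X. A further 5 Nduf symbols were outside the rule because the annotation does not class them as protein-coding.

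Ribosomal RNA was removed from total RNA of the cytosol of macrophages grown from bone marrow of the mouse strain C57BL/6J before sequencing. All cells had received lipid A, the endotoxin moiety sensed by Toll-like receptor 4, for 90 min at 100 ng/ml. There was 1 group of 3 libraries, each made from 1 µg of RNA and labelled as biological replicates 1, 2 and 3 with the same donor identifier. Sex and age were not collected, and untreated cells were not analysed here, so levels are compared between genes and between libraries and not between treatments.

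Complex I (NADH:ubiquinone oxidoreductase) takes electrons from NADH to ubiquinone and pumps protons across the inner mitochondrial membrane. Its peripheral arm carries the flavin and the iron-sulfur clusters, its membrane arm carries the proton channels, and the core of the membrane arm is encoded by mitochondrial DNA. The supernumerary subunits surround this core and stabilise it, and assembly factors join the modules without staying in the finished enzyme. In macrophages the complex is also known as a source of reactive oxygen species, and endotoxin shifts energy metabolism toward glycolysis.

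The cells carried the labelled identity. All 8 macrophage markers (Adgre1, Csf1r, Cd68, Lyz2, Itgam, Fcgr1, Mertk and Cd14) averaged at least 1 TPM (transcript abundance scaled for length and library), and together summed to 7216, 5520 and 5179 TPM in replicates 1, 2 and 3. Neutrophil markers summed to 41.59, 24.36 and 41.94 TPM, with 3 of 7 at 1 TPM or more. The summed markers of T and NK cells, B cells, erythroid cells, fibroblasts, and fat or muscle were at or below 0.14 TPM in every library. In bulk RNA of this kind, fewer cells of a type and less RNA per cell cannot be told apart. Expected counts on annotated genes were 33671556, 47764593 and 59332546, of which the 46 members took 31568, 40196 and 48335, or 0.0938%, 0.0842% and 0.0815%. Where a gene had no count, as many as 3 counts remain possible, or 0.0891, 0.0628 and 0.0506 CPM (counts scaled to library size), by counting error alone. Of the members, 45 had at least 10 counts in every library and a mean of at least 0.1 TPM, and Ndufa4l2 did not.

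One sequence matters for reading the levels. Ndufb4c, annotated as a processed pseudogene on the minus strand of chromosome 15, is a letter-for-letter copy of the coding sequence of the membrane arm subunit Ndufb4. Its 390 bases match bases 95 to 484 of the 971-base Ndufb4 transcript, which is spliced from 3 exons on chromosome 16. Its first 300 bases are printed 5′ to 3′ from the GENCODE M21 transcripts, with the start codon in capitals.
Ndufb4c, chr15:73809597-73809896: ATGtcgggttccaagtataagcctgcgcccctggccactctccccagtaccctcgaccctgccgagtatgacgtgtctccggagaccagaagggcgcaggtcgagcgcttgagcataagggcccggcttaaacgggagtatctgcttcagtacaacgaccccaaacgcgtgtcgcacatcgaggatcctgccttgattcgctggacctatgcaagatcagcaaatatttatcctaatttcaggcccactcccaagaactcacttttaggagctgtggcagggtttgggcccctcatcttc
Reads from this stretch cannot be assigned to one of these genes by sequence, and the values of Ndufb4 given below carry that uncertainty.

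Most subunits lay above the median of expressed protein-coding genes, whereas most assembly factors lay below it. Each gene was set against a reference, the median TPM of the 8752 protein-coding genes that averaged 1 TPM or more, which was 7.38, 6.07 and 6.205 TPM in replicates 1, 2 and 3. A gene was called above or below it where the difference in log2(TPM + 0.1) was at least 1 and the Benjamini-Hochberg adjusted p of limma's one-sample moderated test over 13344 genes was under 0.05. Of the 46 members, 29 were above the reference, against 20.5% of all genes tested and 23.4% of protein-coding genes. These were 28 of the 36 subunits and Ndufa4. Below it were 6 members, all of them assembly factors, against a background of 50.6% of all genes and 43.7% of protein-coding genes. The median log2 difference was 1.52 ± 0.05 (SD, n = 3) over the subunits and -1.58 ± 0.12 over the assembly factors. Over all genes tested it was -1.05, and over all protein-coding genes tested -0.63. Because nothing says the 3 libraries came from separate animals, p-values measure only the spread between these libraries.

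**Figure D1:**
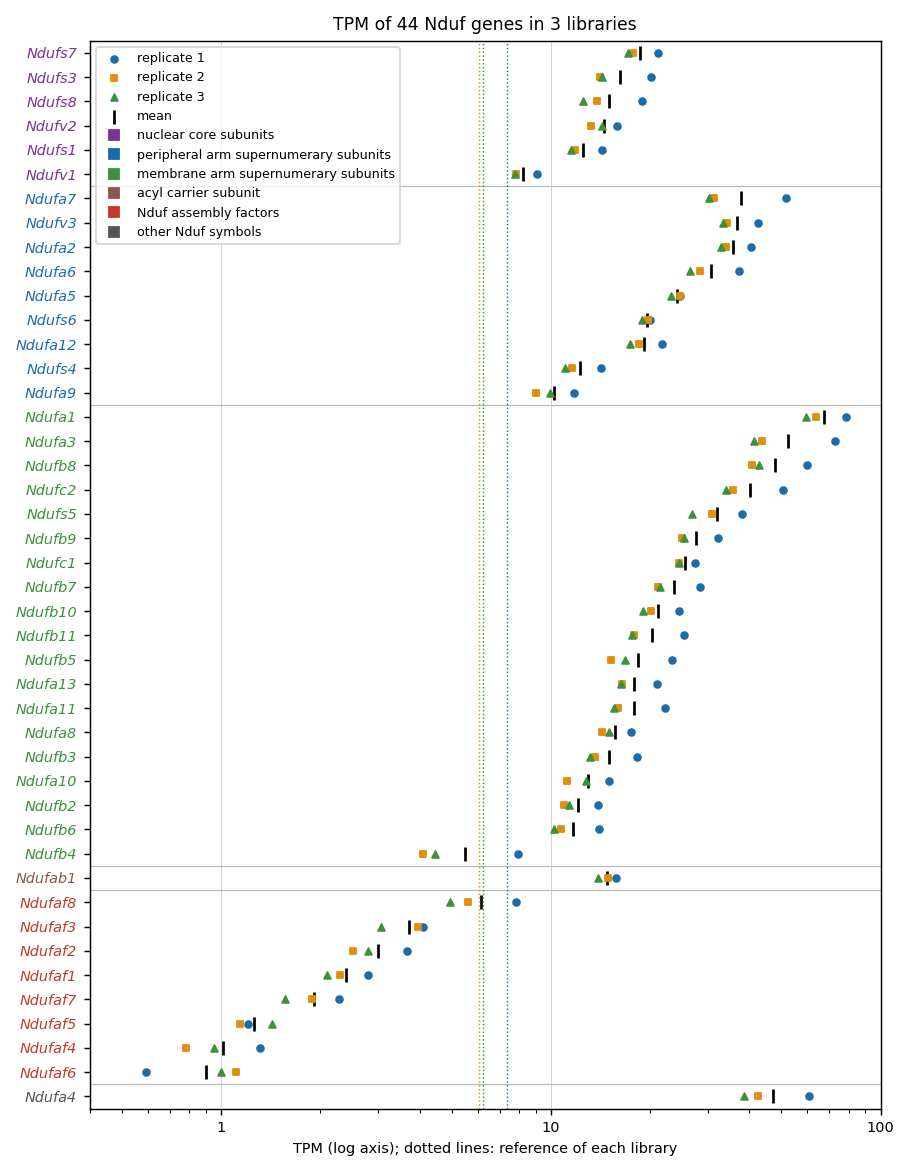
TPM (log axis) of 44 Nduf genes in each of 3 libraries, ordered by mean within role; colours of the names give the role, points the libraries, black ticks the mean, and dotted lines the reference of each library. All subunits drawn except Ndufb4 lie to the right of the reference in every library, while the assembly factors lie mostly to its left. Ndufa4l2, at 0, 0 and 0.05 TPM, is not drawn.

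The nuclear core subunits carry the redox chemistry. Ndufs7, which holds the last iron-sulfur cluster before ubiquinone, gave 21.19, 17.74 and 17.13 TPM in replicates 1, 2 and 3 (18.7 ± 2.19, SD, n = 3). Ndufs3 followed at 20.18, 14.13 and 14.30 TPM. Both genes lay well clear of the reference in every library, and replicate 1 gave the highest TPM for each. The iron-sulfur subunit Ndufs8 averaged 15.1 ± 3.34 TPM.

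The low end of the core held the subunits of the NADH-binding end. Ndufv2, an iron-sulfur subunit, gave 15.84, 13.20 and 14.30 TPM. Ndufs1, which holds several clusters, gave 14.30, 11.83 and 11.55 TPM. Ndufv1, which binds NADH and the flavin, was the lowest at 9.05, 7.83 and 7.80 TPM. Of the 7 core genes 5 were above the reference, while Ndufs1 (log2 difference 0.93 ± 0.04) and Ndufv1 (0.33 ± 0.04) did not reach the minimum difference of 1. The adjusted p of Ndufv1 was 0.00595 and that of Ndufs7 7.989e-05 (limma), each higher than the reference in 3 of 3 libraries.

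Among the 9 supernumerary subunits of the peripheral arm, 7 were above the reference, with a median log2 difference of 1.87 ± 0.14. That median is the value of Ndufa5, for which transcripts annotated as protein-coding held only 16.6% of the TPM. Ndufa7 was measured at 51.75, 31.28 and 30.10 TPM, with replicate 1 the highest, as for most members. Ndufv3, which sits at the NADH-binding end, was measured at 42.53, 34.22 and 33.38 TPM. Ndufa2, with a thioredoxin-like fold, was measured at 40.39, 34.02 and 32.74 TPM. Each of these leading genes was above Ndufs7 in every library. Ndufv3 has annotated coding forms of 493 and 1582 bases, and the short form Ndufv3-202 held 95.2% of the gene's TPM against 4.44% for Ndufv3-201.

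Near the bottom of this class was Ndufa12, related to the assembly factor Ndufaf2, with 21.72, 18.50 and 17.38 TPM. Ndufs4, whose loss causes a mitochondrial encephalopathy in mice, had 14.22, 11.58 and 11.02 TPM. Ndufa9, which lies near the quinone site, had 11.75, 9.00 and 9.92 TPM. Ndufs4 (log2 difference 0.89 ± 0.06) and Ndufa9 (0.63 ± 0.06) were the pair of this class that did not reach the minimum difference. Both were nevertheless higher than the reference in 3 of 3 libraries, with limma adjusted p of 0.000353 and 0.000954. The remaining members, Ndufa6, Ndufa5 and Ndufs6, averaged 30.7, 24.2 and 19.5 TPM.

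The 19 supernumerary subunits of the membrane arm had the widest range of the subunit classes, and 15 of them were above the reference. Ndufa1 (chrX:37187588-37191163), a small subunit with a single membrane helix, was the most abundant member of all at 78.77, 63.91 and 59.58 TPM. It stood 10.1-fold over the reference, a log2 difference of 3.34 ± 0.08 (limma, adjusted p = 3.2955e-05). Ndufa3 gave 72.57, 43.74 and 41.36 TPM, and Ndufb8, often used as an antibody marker of assembled complex I, gave 60.03, 40.73 and 42.83 TPM. For both genes replicate 1 had the highest TPM, as it did for 42 of 45 members. A middle group of 13 genes, from Ndufc2 at 40.1 down to Ndufa10 at 13.0 TPM, included Ndufa13, also known as Grim-19, at 17.9 ± 2.65 TPM.

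At the bottom of the membrane arm were Ndufb2 with 13.89, 10.99 and 11.34 TPM, Ndufb6 with 13.96, 10.77 and 10.21 TPM, and Ndufb4. The first and second of these were higher than the reference in every library, with log2 differences of 0.87 ± 0.03 and 0.81 ± 0.10. Ndufb4 gave 7.93, 4.10 and 4.44 TPM, above the reference in replicate 1 and under it in replicates 2 and 3. Its log2 difference was -0.31 ± 0.36 (limma, adjusted p = 0.145), the lowest of any subunit. Ndufa10, with a fold like that of nucleoside kinases, also fell short of the minimum difference (0.97 ± 0.09). Ndufab1, the mitochondrial acyl carrier protein, which serves fatty acid synthesis as well, gave 15.80, 14.87 and 13.89 TPM and was above the reference (1.17 ± 0.10).

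Ndufb4 and its copy were counted as follows. Ndufb4 received 347.34, 294.43 and 387.48 expected counts and Ndufb4c 317.66, 441.57 and 500.52, so that 45.3% ± 6.28 (SD, n = 3) of their joint counts went to Ndufb4. Because Ndufb4c is shorter, the same counts made 33.71, 25.83 and 24.03 TPM there. The share moved between the libraries, with Ndufb4 ahead of Ndufb4c in replicate 1 and behind it in replicates 2 and 3. Among the members only Ndufb4 had an assignment SD, the uncertainty of read assignment listed in the deposited tables, above 1% of its counts (10.01, 10.43 and 11.94 counts).

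With the counts of both placed on the length of Ndufb4, the gene would have 15.2, 10.2 and 10.2 TPM, a mean of 11.9 ± 2.87. That is close to Ndufb6 and Ndufb2, and its log2 difference was then 0.83, short of the minimum for a call. This pooled value was computed after the split was seen. In the second deposited quantification, made straight from the sequencing reads, Ndufb4c again had the larger TPM, 11.3 ± 4.46 against 2.72 ± 1.35 for Ndufb4. Which of these loci the transcripts came from was not tested.

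**Figure D2:**
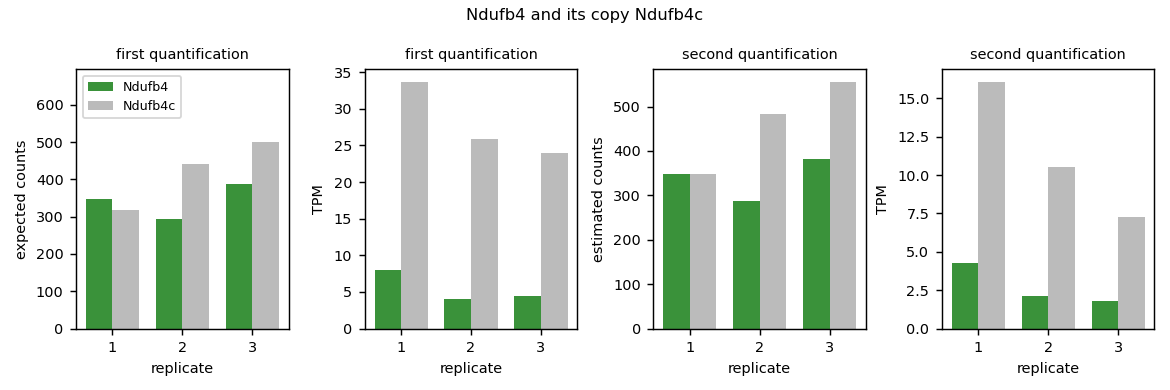
Counts and TPM of Ndufb4 (green) and Ndufb4c (grey) in replicates 1 to 3, in the first quantification (expected counts, TPM) and the second (estimated counts, TPM); bars are single libraries. In counts of the first quantification Ndufb4 is ahead in replicate 1 (347.34 against 317.66) and behind in the others, while in TPM the shorter Ndufb4c is ahead in every library.

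Other members had copies too, but hardly any reads lay on them. Transcripts of 8 members matched 10 annotated pseudogenes at 95% identity or more over at least 100 bases and at least 50% of the copy. Only Ndufb4c and Gm15920, a copy of Ndufa12 at 1.21 TPM, averaged 1 TPM or more. Exons of 19 members overlapped those of another gene, for 17 of them on the opposite strand. Since the sources used here do not say whether counting used the strand, reads of such pairs cannot be told apart. The overlapping genes of highest TPM were Eef1b2 for Ndufs1 (96.8 TPM, 9 bases), Mrpl36 for Ndufs6 (8.88 TPM, 30 bases), Impdh2 for Ndufaf3 (8.59 TPM, 48 bases) and Braf for Ndufb2 (7.39 TPM, 146 bases).

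The assembly factors formed the low end of the family. Ndufaf8, which stabilises Ndufaf5, was the highest at 7.84, 5.60 and 4.93 TPM, over the reference in replicate 1 only. Ndufaf3, which works in a pair with Ndufaf4 on an early membrane-bound intermediate, had 4.10, 3.96 and 3.05 TPM. Ndufaf2, which binds a late intermediate, had 3.65, 2.51 and 2.78 TPM. Neither Ndufaf8 (log2 difference -0.12 ± 0.21) nor Ndufaf3 (-0.81 ± 0.20) was called. Ndufaf2 was called below at -1.12 ± 0.12 (limma, adjusted p = 0.000361).

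The lowest were Ndufaf5, which hydroxylates an arginine of Ndufs7, at 1.21, 1.14 and 1.43 TPM, Ndufaf4 at 1.31, 0.78 and 0.95 TPM, and Ndufaf6 at 0.59, 1.11 and 1.00 TPM. Ndufaf6 was the least abundant, with 26, 54 and 71 counts, and its log2 difference was -2.77 ± 0.59 (limma, adjusted p = 0.00103). Between these ends were Ndufaf1, a partner of Ecsit and Acad9 in membrane arm assembly, at 2.79, 2.30 and 2.10 TPM and Ndufaf7, an arginine methyltransferase, at 2.27, 1.89 and 1.56 TPM. In mean TPM the subunits overlapped with the 8 assembly factors, since Ndufb4 (5.49) lay under Ndufaf8 (6.12), the highest of the factors. The other 35 subunits started at 8.23 (Ndufv1). In each library the lowest of those subunits was Ndufv1 and the highest assembly factor was Ndufaf8.

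Ndufa4 and Ndufa4l2 lay at opposite ends. Ndufa4, once listed with complex I and now counted to cytochrome c oxidase, gave 60.87, 42.50 and 38.44 TPM, a log2 difference of 2.81 ± 0.21 (limma, adjusted p = 8.3466e-05). Its paralog Ndufa4l2, a known target of hypoxia signalling, was listed at 0, 0 and 0.05 TPM and had 1 count in replicate 3 and none in the others. That is at or under the level that 3 counts mark in each library, so no fold is given. Its exons overlap those of Shmt2 on the opposite strand.

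These counts depend on the reference, whose choice shifts every gene alike. With a reference of genes at 5 TPM or more, 10 subunits were above it (10.6% of all genes), and Ndufb4 and all 8 assembly factors were below (66.1%). With all protein-coding genes above 0 as the reference, 35 subunits were above (33.9% of all genes). Below it were 3 of the 8 assembly factors, near the share of all genes (37.4%).

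Complex I assembly factors without an Nduf symbol were also measured. Of 10 found, 7 were below the reference, against 50.6% of all genes tested, 2 were called neither way (Foxred1 and Tmem70) and 1 was above it, with a median log2 difference of -1.31 ± 0.11 against -1.05 over all genes tested. The exception was Dmac1, needed for the distal membrane arm, at 22.02, 17.07 and 18.78 TPM. The lowest was Tmem186 at 0.65, 0.57 and 0.54 TPM. Dmac1 was higher than the reference and Tmem186 lower in every library.

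The 7 core subunits encoded by mitochondrial DNA were the most abundant transcripts of the complex. They were all above the reference, with a median log2 difference of 5.33 ± 0.83, and by mean TPM ranged from mt-Nd3 at 120.50, 118.34 and 250.17 TPM to mt-Nd1 at 246.07, 361.34 and 656.22 TPM. In replicate 1 alone mt-Nd2 was the lowest, at 95.25 TPM. Their sum was 1149, 1757 and 3103 TPM in replicates 1, 2 and 3, whereas the sum of the 36 nuclear-encoded subunits was 998, 762 and 743 TPM. As listed, the sums differed little in replicate 1 and widely in replicate 3. Near-identical copies annotated in the nuclear genome also carried counts. A copy of mt-Nd3 on chromosome 1 (Gm28438, 99.71% identical over 345 bases) held 1123, 2656 and 5207 counts, against 858, 1574 and 4054 for mt-Nd3. One of mt-Nd4l (Gm10222) held 857, 2422 and 6223, against 744, 2386 and 4621 for mt-Nd4l. So the values of mt-Nd3 and mt-Nd4l are uncertain. The sums above leave out both copies, which averaged 231 and 355 TPM. The distance between the sums and the order of the 7 genes are therefore uncertain too. Which locus these reads came from was not tested.

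Nuclear-encoded subunits of the other respiratory complexes were higher than those of complex I. Of 38 such genes 36 were above the reference, against 20.5% of all genes, and Cyc1 and Uqcrc2 of complex III were called neither way. The median log2 difference was 2.06 ± 0.07 for complex II, 2.77 ± 0.04 for complex III, 3.62 ± 0.07 for complex IV and 2.68 ± 0.16 for complex V. All exceeded the 1.52 ± 0.05 of the complex I subunits by more than the SD over libraries, and the order was not tested beyond that. The extremes were Cox4i1 of cytochrome c oxidase at 230.91, 171.01 and 171.85 TPM and Cyc1, cytochrome c1, at 10.88, 7.82 and 8.43 TPM. The lists overlapped gene by gene, and Ndufa1 (67.4 ± 10.1 TPM) exceeded Sdha, the highest of complex II at 30.9 ± 3.08 TPM.

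**Figure D3:**
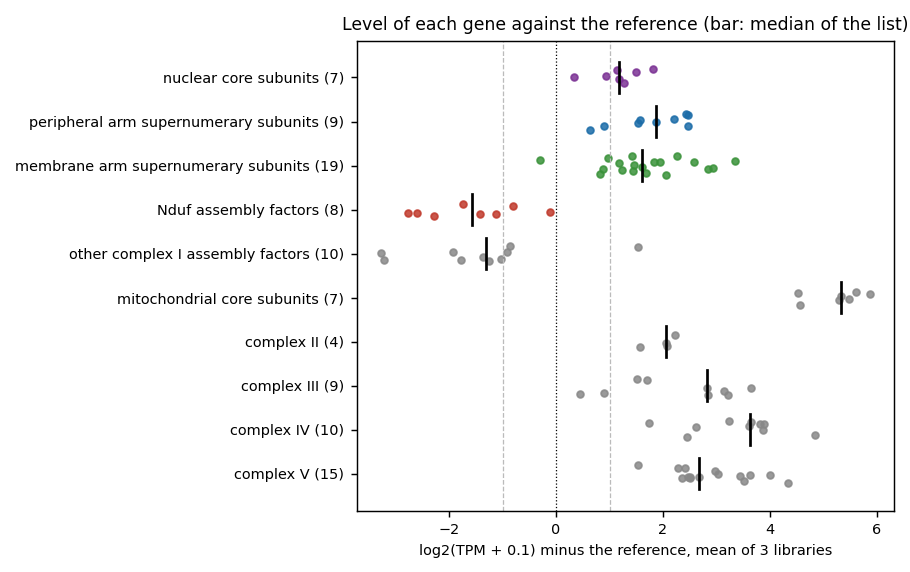
Log2(TPM + 0.1) minus the reference, mean over 3 libraries, for each gene (points, scattered vertically for legibility) of the complex I roles, the other assembly factors, the mitochondrially encoded core and complexes II to V, with the number of genes in brackets; black bars are list medians and dashed lines mark a difference of 1 either way. Both sets of assembly factors have medians below -1, all subunit lists have medians above 1, and the mitochondrial core lies farthest to the right.

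Among the 36 subunits shorter transcripts had higher TPM. Over these subunits the Pearson correlation of log2 TPM with log2 length was -0.613 and Spearman's rho -0.657, across genes, which share libraries and are not independent replicates. Without the division by effective length, in expected counts per kilobase of full length, it was -0.388 (rho -0.432). The same correlation over 8752 protein-coding genes at 1 TPM or more was -0.182. The members were short, with a median length of 733 bases against 2552 for the reference genes, and 33 of 46 were under 1000 bases. Levels spanned 12.3-fold from Ndufb4 to Ndufa1 in TPM and 8.03-fold in counts per kilobase, and 8.20-fold in TPM from Ndufv1 when Ndufb4 was left out.

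Between the libraries no nuclear-encoded member was called variable. Genes were tested against the dispersion trend of genes of like abundance (edgeR goodness of fit on rounded expected counts). Beyond it differed 0 of 45 members, against 2.32% of 12339 genes, so the count is near the share over all genes. At an unadjusted p under 0.05 there were 0 members, against 6.07% of all genes. Of 11202 protein-coding genes 447 were under that p, as were 262 of the 7494 within the members' range of abundance. DESeq2 size factors also gave 0. The lowest unadjusted p was 0.0824 (edgeR), for Ndufb4. The median SD of log2 CPM after TMM scaling was 0.082 over the members and 0.111 over 11202 protein-coding genes, or 0.112 over the 7494 of them within the members' range of abundance.

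On the TPM scale itself, where all genes share a scaling per library, the widest SDs of log2(TPM + 0.1) were those of Ndufb4 (0.51), Ndufa3 (0.45) and Ndufa7 (0.44). The smallest belonged to Ndufs6 (0.043), Ndufa5 (0.053) and Ndufab1 (0.092). This order holds on the TPM scale only. After TMM scaling the SD of log2 CPM was 0.178 for Ndufs6 and 0.162 for Ndufa5, above the median of 0.082 over the members. For Ndufab1 it was 0.046, under that median. Ndufs6 gave 20.00, 19.71 and 18.88 TPM and Ndufa5 24.67, 24.70 and 23.15 TPM. Replicate 1 had the highest TPM for 42 of 45 members, as for 78.75% of protein-coding genes. In log2 TPM minus the reference, replicates 1, 2 and 3 were the highest for 27, 13 and 5 members, against 36.68%, 29.13% and 34.19% of protein-coding genes, and replicate 3 was the lowest for 28, against 35.8%. After TMM scaling, replicates 1, 2 and 3 were the highest for 21, 15 and 9 members, against 39.3%, 26.65% and 34.06% of protein-coding genes.

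The mitochondrially encoded core varied between the libraries. By the same edgeR test 6 of the 7 mt-Nd genes differed between libraries, against 2.32% of 12339 genes. The adjusted p of the 6 (edgeR) ran from 5.043e-17 for mt-Nd6 to 0.0228 for mt-Nd4, and mt-Nd5 had 0.0579. The median SD of log2 CPM over the 7 genes was 0.851. TPM in the highest library was 2.11-fold (mt-Nd3) to 3.31-fold (mt-Nd6) that in the lowest, and replicate 3 was the highest for all 7 genes. For mt-Nd3 and mt-Nd4l, which have the near-identical nuclear copies given above, these values depend on how reads were split. Total counts ran in the same order over the libraries, 33671556, 47764593 and 59332546, and Malat1, a noncoding RNA known to stay in the nucleus, did as well, at 128.25, 335.32 and 913.28 TPM, a gene picked here with these values known. The part of depth, or of the fraction, in this result was not tested. The difference between the nuclear and the mitochondrial genes was itself not tested.

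**Figure D4:**
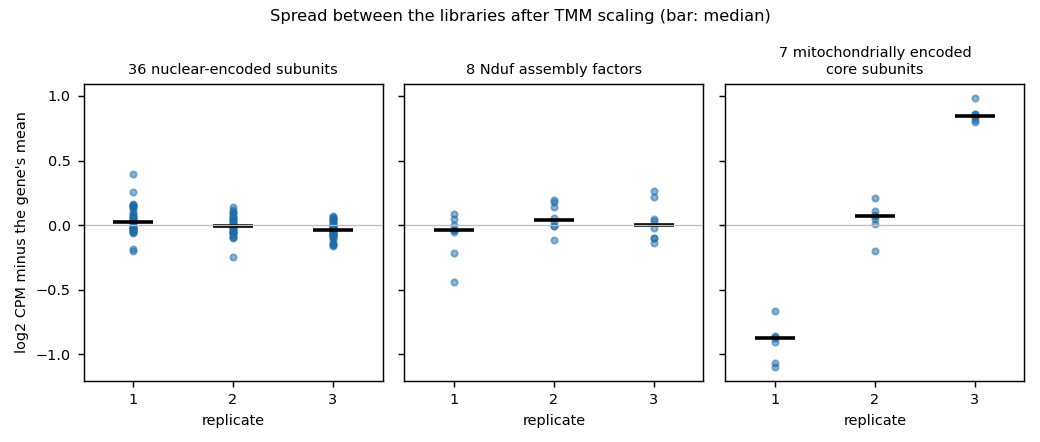
Log2 CPM after TMM scaling minus the mean of the gene, by replicate, for the nuclear-encoded subunits, the Nduf assembly factors and the mitochondrially encoded core; points are genes and black bars medians. The nuclear-encoded subunits stay near 0 in each replicate, whereas the 7 mitochondrial genes lie low in replicate 1 and high in replicate 3, with a median SD of 0.851.

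No member was called different between the 2 deposited quantifications. After centring on protein-coding genes, 0 of 44 members tested differed between them at an adjusted p under 0.05 with a log2 difference of 1 or more (limma), against 4.64% of 9491 genes. At an unadjusted p under 0.05 there were 20 members, against 60.1% of all genes. The centred differences reached 0.35 for Ndufab1, with Ndufaf4 at 0.33 and Ndufb4 at 0.23 next to the upper end. In the levels of the second quantification, 20 subunits were above its own reference (15.5% of all genes) and 7 assembly factors below (55.8%).

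Most members were read as coding mRNA, but for a few the annotated non-coding transcripts held most of the TPM. The median share of a member's TPM on transcripts annotated as protein-coding was 98.9% ± 0.68 over 45 members. The share was over 90% for 30 members, and 11 have no other kind of transcript annotated. Below 50% were 4 members, Ndufa5, Ndufs4, Ndufab1 and Ndufc1. These transcripts are short and TPM divides by length, and in shares of counts 34 members were over 90% and only Ndufa5 was under 50%. In the second quantification 6 members were under 50%, among them also Ndufaf4 (39.9%) and Ndufa3 (49.6%). In the first, coding transcripts held 55.8% of the TPM of Ndufa3, and transcripts annotated for nonsense-mediated decay 43.2%. No share over all genes is set beside these counts of members, so how usual they are is not known.

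Ndufa5 had 15.2%, 19.4% and 15.1% of its TPM on coding transcripts in replicates 1, 2 and 3. Its main transcript was Ndufa5-204, a non-coding processed transcript of 453 bases, at 15.84, 14.94 and 14.91 TPM, against 2.57, 2.09 and 2.22 TPM for the coding Ndufa5-201. It was first in every library and held 63.0% of the TPM and 56.8% of the counts of the gene. So the abundance of Ndufa5 given above is mostly not that of its coding mRNA as annotated.

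Ndufs4 had 22.7%, 26.9% and 29.5% of its TPM on coding transcripts. The largest was Ndufs4-202, annotated for nonsense-mediated decay, at 8.95, 7.70 and 6.70 TPM, against 2.32, 1.82 and 2.13 TPM for the coding Ndufs4-201. By counts the coding share of Ndufs4 was 52.7% ± 3.17. Ndufab1 had 50.3%, 38.3% and 39.1% and Ndufc1 55.7%, 45.2% and 45.6% of TPM on coding transcripts. In both, retained-intron transcripts made most of the rest, Ndufab1-205 with 44.4% and Ndufc1-203 with 39.8% of TPM. By counts Ndufab1 stood at 77.0% ± 5.93 and Ndufc1 at 65.8% ± 9.71 coding. Averaged over the libraries, coding transcripts held the smaller part of the TPM given above for Ndufs4, Ndufab1 and Ndufc1. The calls of Ndufa5, Ndufab1 and Ndufc1 above the reference rest on all their transcripts together. So does the place of Ndufs4 over the reference in every library. Coding transcripts alone were not set against the reference.

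**Figure D5:**
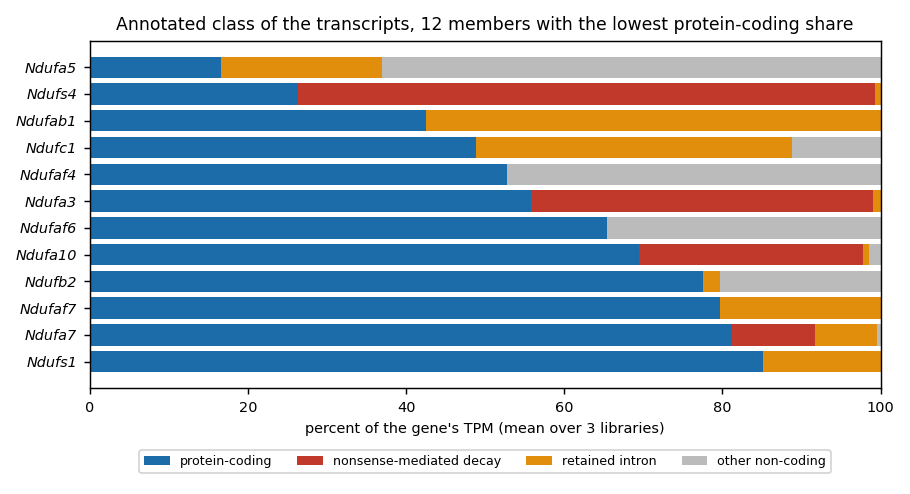
Share of a gene's TPM (percent, mean over 3 libraries) by the annotated class of its transcripts, for the 12 tested members with the lowest protein-coding share. Ndufa5 is led by other non-coding transcripts, Ndufs4 by transcripts annotated for nonsense-mediated decay, and Ndufab1 by retained introns (57.4%).

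Promoters of the family were searched for the letters of 3 motifs linked in textbooks to nuclear genes of respiration, as a description of sequence shared by genes chosen by name. RefSeq windows (GRCm38.p6) of 300 bases, from 250 before to 50 after the start, matched 40 of the 46 members. Searched on both strands, CCGGAAG, a core of the ETS family motif bound by GABP, was found in 6 windows (15.0%), against 9.93% of 27025 genes and 23.2% of the 6993 genes at 1 TPM or more. GCATGCG, a core of the NRF1 motif, was in 5 (12.5%, against 4.01% and 8.01%). ATGGCGG, a core of the YY1 motif, was in 10 of 40, against 4.69% and 10.9%. At least 1 of the 3 was in 20 of 40 windows, against 16.6% of all genes and 36.5% of those expressed. ATGGCGG can hold a start codon, and a match is not a bound site.

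The stretches from 60 bases before to 30 after the start of Ndufs3, Ndufa8 and Ndufaf8 are printed 5′ to 3′ on the strand of the gene because between them they hold each motif. They were chosen after the matches were seen, and capitals mark matches on either strand.
Ndufs3, chr2:90904692-90904781: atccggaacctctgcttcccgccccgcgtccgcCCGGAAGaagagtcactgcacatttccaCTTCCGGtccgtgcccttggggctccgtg
Ndufa8, chr2:36049309-36049398: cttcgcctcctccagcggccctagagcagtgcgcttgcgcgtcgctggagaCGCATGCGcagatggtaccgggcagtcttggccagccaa
Ndufaf8, chr11:120098874-120098963: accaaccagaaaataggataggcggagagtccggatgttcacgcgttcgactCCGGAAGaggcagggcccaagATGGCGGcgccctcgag
Ndufs3 (16.2 ± 3.44 TPM) has CCGGAAG on both strands, Ndufa8 (15.6 ± 1.69 TPM) has GCATGCG overlapping its own reverse complement, and Ndufaf8 (6.12 ± 1.52 TPM) has CCGGAAG and ATGGCGG. Members with and without a match were not compared in level.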

How the data were processed

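RNA of the cytosolic fraction of 3 libraries was measured. The authors aligned to mm10 with GENCODE M21, per the descriptions deposited with the tables, and gave values per gene and per transcript. Per the file headers, the first quantification holds expected counts, TPM and FPKM with effective lengths, and the second, made straight from FASTQ files, holds estimated counts and TPM. Deposited TPM values sum over everything quantified, small RNAs included. The deposited FPKM values served only as an alternative. Names and versions of the counting tools were not given in the sources used here.

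Members were taken by symbol and joined by gene identifier. Members and lists were chosen with earlier results of these data known. Levels were tested with limma 3.58.1 in R 4.3.3, the spread with edgeR 4.0.16 (TMM, trended dispersion, at least 10 counts in every library, expected counts rounded), and DESeq2 1.42.0 size factors were an alternative. Both quantifications were compared where either averaged 1 TPM or more. Copies were searched with blastn 2.17.0. The tests were tested on simulated data. Every pair of libraries differed by more than counting noise (chi-square per degree of freedom 102, 162 and 46.2). Of the listed symbols Ndufb1 and Coa1 were not found, and of 2 identifiers of Atp5o the one at 0 was left out.

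Named with values per library were the 3 highest and 3 lowest members of each role by mean TPM, members below the reference, those with the 3 largest and 3 smallest SDs of log2 TPM, the 4 with the lowest coding share, Ndufa4 and Ndufa4l2, and the highest and lowest gene of other lists. A nuclear core subunit is not reported singly here. Further names were chosen after their values were seen. Alternatives were the pseudocount, the reference, the filter on low values, FPKM, the second quantification, counts per kilobase, centring, and each replicate left out in turn.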

Additional observations from a re-analysis of the deposited data

Results flagged for a closer look

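A pair of Nduf symbols outside the protein-coding annotation carried signal. Ndufb1-ps (chr12:101968090-101977068, minus strand), classed by GENCODE M21 as a long noncoding RNA at a bidirectional promoter, gave 51.78, 42.34 and 44.76 TPM, a mean of 46.29 ± 4.90 (SD, n = 3). Only 3 of the 36 subunits had a higher mean. Its log2 difference from the reference was 2.80 ± 0.03 (limma, adjusted p = 3.2955e-05), higher in 3 of 3 libraries. The RefSeq table lists this gene as the protein-coding Ndufb1, a membrane arm subunit otherwise missing from the members.

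Ndufb4c (chr15:73809507-73809896, minus strand), classed as a processed pseudogene, averaged 27.86 ± 5.15 TPM, with a log2 difference of 2.06 ± 0.12. All of its sequence is shared with Ndufb4, and the RefSeq table lists it as protein-coding. Whether the reads came from this locus was not tested. The other 3 symbols left out, Ndufa11b, Ndufab1-ps and Ndufs6b, were at 0.05 TPM or less in every library.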

How the results depend on the processing

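Members above the reference numbered 29 and fell to 11 with a reference of genes at 5 TPM or more; other settings gave 21 (second quantification) to 36. Members below it numbered 6 and fell to 3 with all protein-coding genes above 0 as the reference; other settings gave 5 to 9. The median level of the members, 1.34 ± 0.08 in log2, stayed positive: 1.23 with a pseudocount of 1 TPM, 0.31 with the reference at 5 TPM or more, 2.34 with all protein-coding genes above 0, 1.56 in FPKM, 0.89 in the second quantification and 1.20 in counts per kilobase. Leaving out each replicate gave 29 to 30 above, 6 below and a median of 1.26 to 1.38. Without centring 42 of 44 members differed between the quantifications instead of 0, as did 8473 of all 9491 genes tested. Under the other settings run 0 members differed. Leaving out each replicate left 0 members beyond the dispersion trend (edgeR), with 1 member at an unadjusted p under 0.05 without replicate 3. The median coding share ranged from 98.2% to 99.2%. No paired analysis was possible because the replicate numbers belong to 1 group. Depth limits Ndufa4l2 and Ndufaf6 most. Of the single members, 18 lost and 3 gained a call with the reference at 5 TPM or more, 3 and 7 with all protein-coding genes above 0, 8 and 1 in the second quantification, and 1 and 5 in FPKM, and none reversed under any setting run. The cause of the changes was not tested.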
